A study of Mus musculus with 15 samples.

Results

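The 50 genes described here encode enzymes and transporters of central carbon metabolism. They comprise 22 genes of glycolysis and lactate handling, 7 genes of the pentose phosphate pathway and 21 genes of the tricarboxylic acid (TCA) cycle and of the reactions that feed pyruvate into it or draw on its intermediates. They were listed by name for what they encode, with earlier results of these data known, and all 50 were found among the 50554 genes counted in each library. All 50 also passed the filter on low counts that left 20865 genes for testing.

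The libraries were made from bone marrow-derived dendritic cells (BMDCs), which are antigen-presenting cells grown from mouse marrow in granulocyte-macrophage colony-stimulating factor (GM-CSF). The study asked how loss of the activity of MYSM1, a deubiquitinase that binds chromatin, bears on the response of such cells to lipopolysaccharide (LPS), a bacterial surface molecule sensed through TLR4. All mice carried a CreERT2 transgene, a Cre recombinase activated by tamoxifen, and all received tamoxifen. Deletion of the floxed allele left Mysm1 fl/+ mice with a wild-type allele (Δ/+) and Mysm1 fl/DN mice with only a catalytically dead form of MYSM1 (Δ/DN). No source used here names the promoter behind the transgene. Marrow, collected over 12 weeks past the tamoxifen, was grown for 9 days, and then kept for 18 h without stimulation (US) or with 10 ng/mL LPS. There were 4 Δ/+ US, 4 Δ/DN US, 3 Δ/+ LPS and 4 Δ/DN LPS libraries, with total counts between 37256651 and 104041282 reads.

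Glycolysis splits glucose into pyruvate, and its flux is gated early on by the hexokinases and by phosphofructokinase. The pentose phosphate pathway branches off after the hexokinase step, and its oxidative arm yields NADPH while its other arm shuffles sugar phosphates. The TCA cycle oxidises acetyl groups from pyruvate in mitochondria, and in macrophages and dendritic cells activated through TLR4 it is known for a diversion of cis-aconitate to itaconate by the enzyme that Acod1 encodes.

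Which letter of mouse group stood for which genotype differs between the description of the series and its sample fields. Every direction between genotypes is therefore given as labelled on the samples, and each would be the opposite under the other reading. Reads of Mysm1 cannot settle this, because each genotype keeps an undeleted allele. Mysm1 lay between 46.3 and 54.1 CPM, reads scaled to library size, in Δ/+ US, between 28.1 and 48.9 CPM in Δ/DN US, between 41.3 and 44.6 CPM in Δ/+ LPS and between 30.8 and 40.0 CPM in Δ/DN LPS libraries. Names of libraries begin with 2 or 3, which splits them into library sets of unstated meaning. Set 3 held Δ/+ US replicate 4 and Δ/DN replicates 3 and 4 of both treatments, but no Δ/+ LPS library. US and LPS libraries of 1 genotype and number share an identifier in the sample labels and are called a culture, and 2 Δ/DN cultures stood apart in sex-linked genes. Xist, the RNA of the inactive X chromosome, lay at 1144 and 1166 CPM in Δ/DN culture 4 and at no more than 0.0645 CPM in the other 13 libraries. Ddx3y, a Y-linked gene, was at 0 in that culture, lay at 1.94 and 3.69 CPM in Δ/DN culture 3, and lay between 47.2 and 105 CPM elsewhere. All 12 conventional dendritic cell markers examined had reads in every group. So did all 11 macrophage and all 12 neutrophil markers, so presence of reads does not tell these cell types apart.

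Levels are given as CPM after normalisation for composition with TMM, in replicate order, and group values as mean ± SD. Differences are log2 fold changes ± standard error (SE) from edgeR's quasi-likelihood test with Benjamini-Hochberg adjustment over the 20865 genes, and a gene was counted as called at an adjusted p below 0.05. CPM depends on gene length, so levels are compared between genes only per kilobase of the longest coding transcript. In bulk samples, fewer cells of a type and less RNA per cell cannot be told apart. The labels do not say whether cultures of a group came from separate mice, so the p-values measure the spread between these samples.

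Promoter windows were taken from RefSeq on GRCm38.p6, from 250 bases before to 50 bases after a gene start, and were found for 48 of the 50 genes in 70 windows. They were searched on both strands for ACGTG, the core that hypoxia-inducible factors share with E-box binding proteins. The windows printed are those of Acod1 (the largest LPS effect of the 50 genes), Hk2, which differed by both treatment and genotype, Slc16a1, with the largest genotype difference, and Ldha, which was called in no comparison. Capitals mark the motif matches, all of them ACGTG or its reverse complement, with CACGTG where the matches of both strands overlap.
Acod1, chr14:103046762-103047061, plus strand: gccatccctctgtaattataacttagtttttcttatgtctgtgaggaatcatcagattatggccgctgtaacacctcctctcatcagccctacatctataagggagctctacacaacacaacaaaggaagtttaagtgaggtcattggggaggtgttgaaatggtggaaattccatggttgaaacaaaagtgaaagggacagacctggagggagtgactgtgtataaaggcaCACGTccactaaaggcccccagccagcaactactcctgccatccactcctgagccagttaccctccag
Hk2, chr6:82774405-82774704, minus strand: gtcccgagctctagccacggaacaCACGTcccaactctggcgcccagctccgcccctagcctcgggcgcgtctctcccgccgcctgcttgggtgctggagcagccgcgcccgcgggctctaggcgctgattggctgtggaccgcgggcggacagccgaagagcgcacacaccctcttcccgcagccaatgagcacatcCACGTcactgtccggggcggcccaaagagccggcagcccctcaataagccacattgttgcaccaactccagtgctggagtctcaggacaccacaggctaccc
Slc16a1, chr3:104638414-104638713, plus strand: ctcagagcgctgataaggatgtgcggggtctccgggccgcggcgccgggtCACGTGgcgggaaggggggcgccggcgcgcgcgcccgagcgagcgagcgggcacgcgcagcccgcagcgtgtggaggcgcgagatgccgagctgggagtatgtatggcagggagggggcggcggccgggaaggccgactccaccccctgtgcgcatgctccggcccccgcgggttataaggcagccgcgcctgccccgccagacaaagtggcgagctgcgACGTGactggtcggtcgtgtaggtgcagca
Ldha, chr7:46845554-46845853, plus strand: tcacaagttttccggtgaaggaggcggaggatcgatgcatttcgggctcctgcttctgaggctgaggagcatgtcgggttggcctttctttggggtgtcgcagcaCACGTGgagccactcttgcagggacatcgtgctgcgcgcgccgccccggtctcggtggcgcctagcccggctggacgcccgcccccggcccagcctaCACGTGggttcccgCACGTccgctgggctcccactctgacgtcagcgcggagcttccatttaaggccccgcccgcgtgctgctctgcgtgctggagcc
The ACGTG core was in 18 of 34 glycolysis windows (52.9%), in 1 of 8 pentose phosphate windows (12.5%) and in 12 of 28 TCA windows (42.9%), where 19.6% of all 32851 promoter windows and 20.9% of 21263 protein-coding windows held it. Windows of the same gene can overlap, and counted by gene the core was in 15 of 22, 1 of 7 and 7 of 19. The same windows were also searched for a motif of NF-κB type and for a motif of interferon-response type. The NF-κB type was in 0 of 34 glycolysis, 0 of 8 pentose phosphate and 0 of 28 TCA windows. It was in 0.155% of all 32851 promoter windows. The interferon-response type was in 0 of 34, 1 of 8 and 1 of 28, beside 3.44% of all promoter windows. A match describes the letters of the window only. The core was present in genes that LPS raised and in Ldha, Pgk1 and others that were not called.

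With LPS, Hk1, Hk2, Hk3, Pfkp, Pfkfb3 and Eno2 of the glycolysis genes rose in both genotypes, although Hk2 in Δ/+ lay at -0.01 under scaling by library totals alone. That scaling also lost the calls of Hk3 in both genotypes and of Hk2, Pfkfb3, Eno2 and the pentose phosphate gene Rpe in Δ/DN. In the pentose phosphate pathway LPS raised Rpe and lowered Rpia, which act on the same substrate, and in the TCA group it raised Acod1 and lowered Idh1, Aco1, Me2, Fh1 and Idh3a. LPS changed 25 of the 50 genes in Δ/+ cells, 12 upward and 13 downward, where 47.7% of all tested genes were called (22.4% higher, 25.3% lower). In Δ/DN cells it changed 23, 13 upward and 10 downward, where 48.2% of all tested genes were called (23.1% higher, 25.1% lower). The shares of the 50 genes called were thus near those of all genes. The LPS effects of the 2 genotypes contrast different libraries, while each also shares its libraries with the genotype comparisons below. All came from the same fit, with a shared estimate of spread and a shared library set term, so the LPS effects are not fully independent. Between the LPS effects, 10 genes rose in both, 10 fell in both and none was called in opposite directions. The treatments did not overlap for 14 members higher and 13 lower in Δ/+, beside 52.1% of all genes (24.3% higher, 27.8% lower), and for 11 higher and 9 lower in Δ/DN, beside 40.9% (20.1% and 20.8%).

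**Figure D1:**
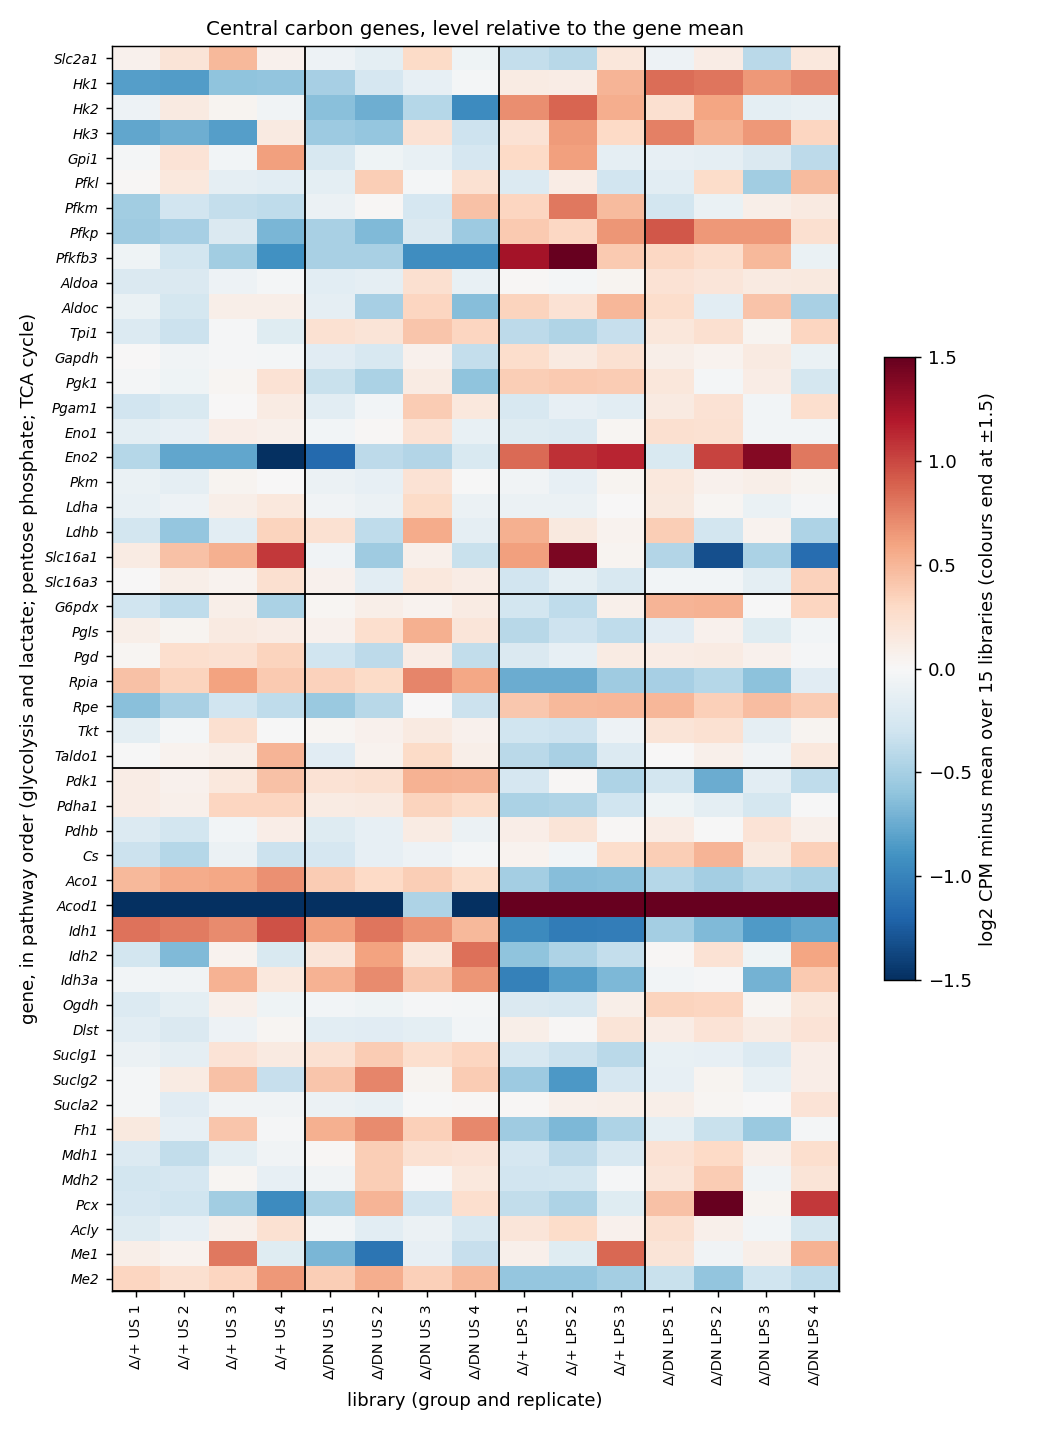
Level of each of the 50 genes (rows, in pathway order) in each of the 15 libraries (columns, by group and replicate), as log2 CPM minus the gene's mean over all libraries, with colours that end at ±1.5. Acod1, Idh1, Aco1, Rpia, Rpe and Hk1 part the US from the LPS libraries in both genotypes, and rows such as Ldha, Pkm and Gapdh vary little.

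Of the 22 glycolysis and lactate genes, 7 rose and 1 fell with LPS in Δ/+ cells, and 6 rose and none fell in Δ/DN cells. The shares called, 36.4% in Δ/+ and 27.3% in Δ/DN, were below the 47.7% and 48.2% of all tested genes. The median LPS effect of the 22 genes was 0.27 in Δ/+ and 0.08 in Δ/DN on the log2 scale, beside medians of -0.08 and -0.09 over all genes. Hk1, the broadly expressed hexokinase that traps glucose in the cell, lay at 44.1, 43.6, 51.5 and 51.6 CPM in Δ/+ US and at 84.7, 84.5 and 112 CPM in Δ/+ LPS libraries. In Δ/DN it lay at 55.1, 65.5, 71.5 and 76.4 CPM without and at 140, 136, 123 and 130 CPM with LPS. Its level with LPS was above that without LPS in every library of each genotype, and the log2 change was 1.00 ± 0.12 in Δ/+ (adjusted p = 9.28e-06) and, in the Δ/DN cells, 0.98 ± 0.11 (adjusted p = 5.3e-06).

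Hk2, the inducible hexokinase, lay at 193, 224, 210 and 197 CPM in Δ/+ US and at 332, 373 and 298 CPM in Δ/+ LPS libraries. In Δ/DN its levels were 132, 123, 151 and 107 CPM without and 242, 308, 185 and 190 CPM with LPS. The treatments did not overlap in either genotype, with log2 changes of 0.64 ± 0.15 in Δ/+ (adjusted p = 0.00269) and, for Δ/DN cells, 0.83 ± 0.14 (adjusted p = 0.000187), although scaling by library totals alone gave -0.01 in Δ/+. Hk3, the hexokinase typical of myeloid cells, rose by 1.03 ± 0.20 in Δ/+ and 0.89 ± 0.19 in Δ/DN.

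Phosphofructokinase makes fructose bisphosphate, and its platelet-type subunit gene Pfkp lay at 385, 394, 478 and 347 CPM in Δ/+ US and at 729, 690 and 879 CPM in Δ/+ LPS libraries. In Δ/DN it lay at 396, 351, 477 and 382 CPM without and at 1056, 873, 876 and 657 CPM with LPS. Every LPS library was above every US library, with log2 changes of 0.91 ± 0.16 (adjusted p = 0.000263) and 1.10 ± 0.15 (adjusted p = 2.62e-05). Its exons share 748 bases with Pitrm1 on the other strand, which had 8.63% as many reads and rose by 0.51 ± 0.09 and 0.42 ± 0.08, and strand use in the counting was not stated.

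Pfkfb3, which makes the small-molecule activator of phosphofructokinase, lay at 82.3, 71.2, 60.0 and 45.7 CPM in Δ/+ US and at 204, 350 and 113 CPM in Δ/+ LPS libraries. Its Δ/DN levels were 61.6, 61.4, 45.3 and 45.1 CPM without and 106, 102, 121 and 80.3 CPM with LPS. The Δ/+ LPS libraries were spread widely, with a mean of 222 ± 120 CPM (SD, n = 3) against 102 ± 16.7 CPM (SD, n = 4) in Δ/DN LPS. The log2 changes were 1.71 ± 0.29 (adjusted p = 0.000277) and 0.96 ± 0.27 (adjusted p = 0.00887), and their difference of -0.75 ± 0.39 was not called (adjusted p = 0.625). The call in Δ/DN was lost with library totals (0.38), in set 2 alone (0.79) and without Δ/DN cultures 3 and 4 (0.78).

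Among the remaining glycolysis genes, Eno2, the enolase best known from neurons, rose by 1.94 ± 0.36 and 1.35 ± 0.33 from a very low level, and Pfkm, the muscle-type phosphofructokinase, rose by 0.96 ± 0.18 in Δ/+ and was not called in Δ/DN (-0.09 ± 0.17). Slc16a3, a lactate exporter, lay at 36.7, 38.7, 37.9 and 43.1 CPM in Δ/+ US and fell to 29.9, 32.8 and 30.8 CPM in Δ/+ LPS libraries (-0.28 ± 0.10, adjusted p = 0.0335). Its Δ/DN libraries lay at 37.9, 32.7, 40.6 and 39.4 CPM without and at 35.3, 35.3, 32.9 and 46.2 CPM with LPS, and these overlapped. The Slc16a3 call was lost without any single Δ/+ US library, without Δ/+ LPS replicate 1 or 3, without Δ/DN US replicate 1 or 4, and with DESeq2. Aldoa, Pgam1, Eno1, Pkm and Ldha, which encode later steps, had log2 changes between -0.11 and 0.21 and were called in neither genotype. Gapdh and Pgk1, which lie between them, were not called by edgeR either, at 0.24 ± 0.11 and 0.36 ± 0.16 in Δ/+ and at 0.22 ± 0.10 and 0.31 ± 0.14 in Δ/DN. Both were higher in every Δ/+ LPS than in every Δ/+ US library, and DESeq2 called both higher in both genotypes. Slc2a1, the main glucose transporter, lay at -0.39 ± 0.18 and -0.05 ± 0.16 and was not called either.

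**Figure D2:**
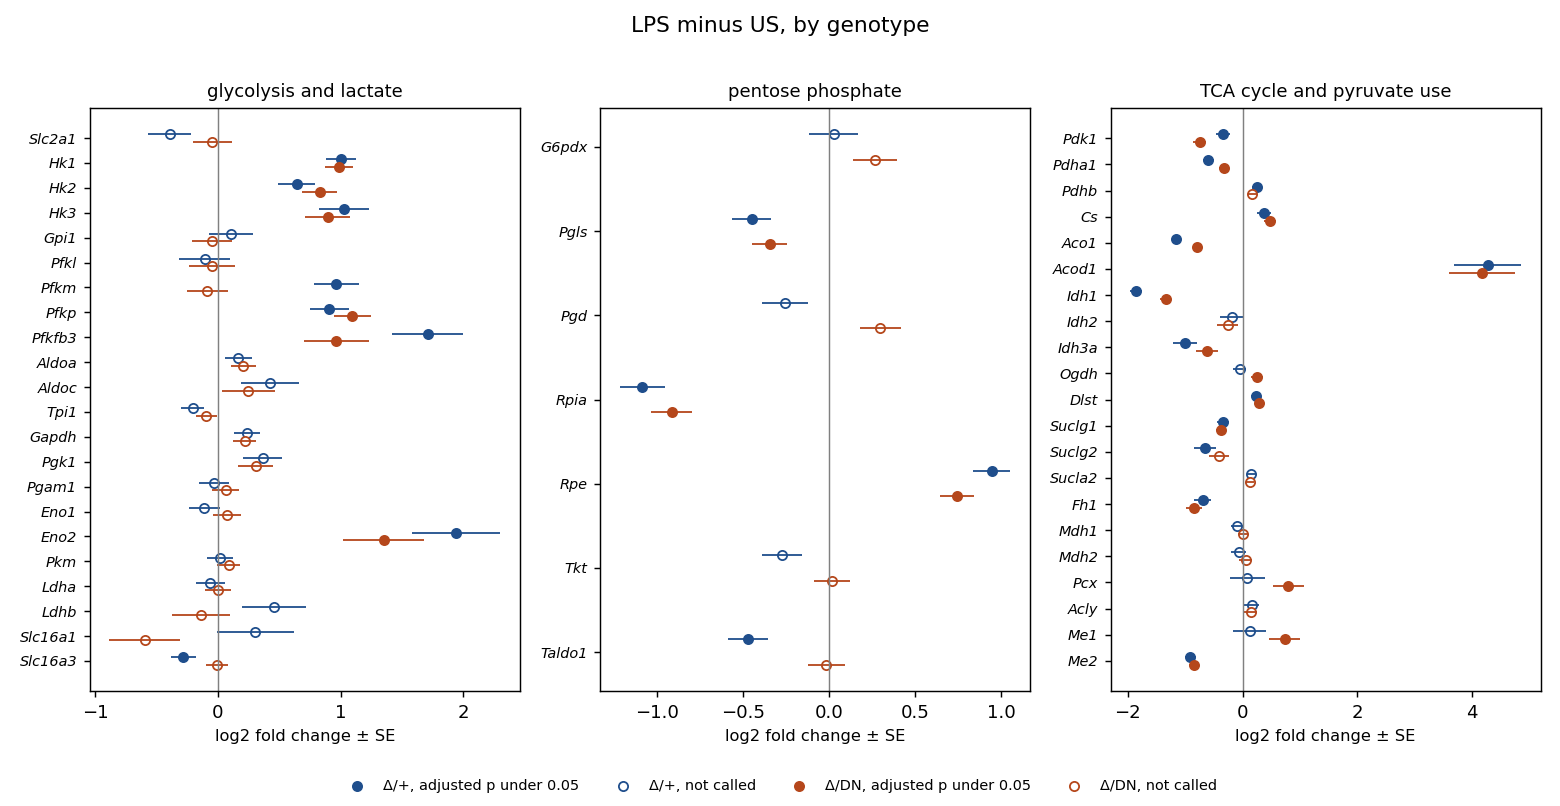
Log2 fold change ± SE of LPS minus US for each of the 50 genes (rows), in Δ/+ (blue) and Δ/DN (red-brown), with filled points for an adjusted p under 0.05 and a separate horizontal scale in each panel. Hexokinases, Pfkp, Pfkfb3, Eno2, Rpe and Acod1 lie right of zero with filled points in both genotypes, although Hk2 in Δ/+ lay at -0.01 under scaling by library totals alone. That scaling also lost the calls of Hk3 in both genotypes and of Hk2, Pfkfb3, Eno2 and Rpe in Δ/DN.

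Of the 7 pentose phosphate genes, 1 rose and 3 fell with LPS in Δ/+ cells, and 1 rose and 2 fell in Δ/DN cells. The shares called were 57.1% in Δ/+ and 42.9% in Δ/DN, beside 47.7% and 48.2% of all tested genes. Rpia, the isomerase that turns ribulose phosphate into the ribose phosphate of nucleotides, lay at 18.1, 16.8, 20.4 and 17.6 CPM in Δ/+ US and at 7.99, 8.00 and 9.27 CPM in Δ/+ LPS libraries. Its Δ/DN levels were 17.0, 16.4, 22.3 and 20.1 CPM without and 9.51, 9.94, 8.76 and 11.9 CPM with LPS. No LPS library reached a US library, with log2 changes of -1.08 ± 0.13 (adjusted p = 8.21e-06) and -0.91 ± 0.12 (adjusted p = 1.5e-05).

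Rpe, the epimerase that uses the same ribulose phosphate, moved the other way. It lay at 30.2, 33.2, 37.9 and 35.7 CPM in Δ/+ US and at 61.6, 65.6 and 65.8 CPM in Δ/+ LPS libraries, and in Δ/DN at 31.7, 35.0, 46.8 and 37.4 CPM without and 65.9, 59.6, 64.5 and 61.0 CPM with LPS. The treatments did not overlap, with log2 changes of 0.94 ± 0.11 (adjusted p = 4.68e-06) and 0.74 ± 0.10 (adjusted p = 2.18e-05). Kansl1l, on the other strand, shares 558 exon bases with Rpe, had 29.5% as many reads, and rose by 0.92 ± 0.13 and 0.72 ± 0.12. Its part in the Rpe values was not tested.

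Pgls, the lactonase of the oxidative arm, lay at 18.0, 17.3, 18.6 and 18.2 CPM in Δ/+ US and at 12.6, 13.6 and 12.9 CPM in Δ/+ LPS libraries, a log2 change of -0.45 ± 0.11 (adjusted p = 0.00358). In Δ/DN it lay at 17.6, 20.1, 24.4 and 19.2 CPM without and at 14.9, 17.7, 14.9 and 16.4 CPM with LPS, which overlapped by 1 library (-0.34 ± 0.10, adjusted p = 0.0102), and this call was lost without Δ/DN culture 3. Pgls shares 776 exon bases with Fam129c on the same strand. No reads were listed under that name, and its part in the Pgls values was not tested. Taldo1, the transaldolase of the non-oxidative arm, fell in Δ/+ from 192, 201, 206 and 277 CPM to 147, 138 and 168 CPM (-0.47 ± 0.12, adjusted p = 0.00381). Its Δ/DN libraries held 172, 201, 237 and 206 CPM without and 195, 205, 187 and 216 CPM with LPS, and the change of -0.02 ± 0.10 was not called. G6pdx and Pgd, the NADPH-forming dehydrogenases, and Tkt, the transketolase, were not called for LPS in either genotype.

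Of the 21 TCA and pyruvate genes, 4 rose and 9 fell with LPS in Δ/+ cells, and 6 rose and 8 fell in Δ/DN cells. The shares called, 61.9% in Δ/+ and 66.7% in Δ/DN, were above the 47.7% and 48.2% of all tested genes. Acod1, which makes itaconate from the TCA intermediate cis-aconitate, lay at 306, 343, 281 and 96.4 CPM in Δ/+ US and at 4367, 4503 and 5772 CPM in Δ/+ LPS libraries. In Δ/DN it lay at 150, 151, 710 and 192 CPM without and at 5652, 5008, 5055 and 4978 CPM with LPS. Its log2 change was 4.27 ± 0.58 in Δ/+ (adjusted p = 5.7e-05) and, for Δ/DN cells, 4.16 ± 0.57 (adjusted p = 6.48e-05). With LPS its level per kilobase was 1861 CPM in Δ/+ cells and, with Δ/DN, 1972 CPM, where Aldoa, next among the 50 by reads on the named locus alone, stood at 517 and 578 CPM per kilobase.

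Idh1, the cytosolic NADP-dependent isocitrate dehydrogenase, lay at 161, 157, 149 and 177 CPM in Δ/+ US and at 47.1, 44.1 and 44.5 CPM in Δ/+ LPS libraries. Its Δ/DN levels were 139, 160, 145 and 127 CPM without and 64.0, 57.6, 50.8 and 53.1 CPM with LPS. The log2 change was -1.85 ± 0.11 in Δ/+ (adjusted p = 1.12e-08) and, for Δ/DN cells, -1.34 ± 0.09 (adjusted p = 4.82e-08), with a wide gap between treatments. Aco1, the cytosolic aconitase that doubles as an iron-responsive RNA-binding protein, lay at 90.5, 95.1, 96.7 and 104 CPM in Δ/+ US and at 45.6, 41.5 and 42.0 CPM in Δ/+ LPS libraries. Its Δ/DN libraries held 84.3, 79.4, 83.9 and 78.5 CPM without and 48.4, 45.4, 48.0 and 46.7 CPM with LPS. Its log2 change was -1.16 ± 0.08 (adjusted p = 2.91e-08) and -0.79 ± 0.07 (adjusted p = 3.21e-07).

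Me2, a mitochondrial malic enzyme that turns malate into pyruvate, fell from 34.6, 32.5, 34.6 and 43.4 CPM to 18.5, 18.5 and 19.4 CPM in Δ/+ and from 35.8, 40.2, 35.5 and 38.8 CPM to 22.0, 18.3, 22.4 and 21.2 CPM in Δ/DN. The log2 changes were -0.91 ± 0.10 (adjusted p = 3.4e-06) and -0.85 ± 0.09 (adjusted p = 2.59e-06), and the treatments did not overlap. Idh3a, a catalytic subunit of the mitochondrial NAD-dependent isocitrate dehydrogenase, changed by -1.01 ± 0.22 and -0.62 ± 0.19, both called lower. Fh1, the fumarase, changed by -0.70 ± 0.15 and -0.85 ± 0.13, also called lower. Pdha1, Suclg1 and Pdk1 were called lower in both genotypes as well, and Suclg2 in Δ/+ cells. The Pdk1 call in Δ/+ was kept in 9 of 15 fits without 1 library. It was lost with RLE scaling, without the low-count filter, in set 2 alone, without Δ/DN cultures 3 and 4, and with DESeq2. The Pdha1 call in Δ/DN was lost in set 2 alone and without Δ/DN cultures 3 and 4. Pdha1 shares 603 exon bases with Map3k15, which had 12.5% as many reads.

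Cs, the citrate synthase at the entry of the cycle, lay at 151, 139, 178 and 151 CPM in Δ/+ US and at 195, 183 and 225 CPM in Δ/+ LPS libraries. In Δ/DN it lay at 157, 172, 178 and 185 CPM without and 244, 267, 208 and 242 CPM with LPS, and neither genotype showed overlap (0.37 ± 0.11, adjusted p = 0.0142, and 0.47 ± 0.10, adjusted p = 0.00171). Dlst, the succinyltransferase of the oxoglutarate dehydrogenase complex, lay at 104, 100, 110 and 119 CPM in Δ/+ US and 124, 118 and 134 CPM in Δ/+ LPS, and at 105, 104, 106 and 113 CPM and 126, 134, 127 and 134 CPM in Δ/DN. Its changes were small, at 0.23 ± 0.08 (adjusted p = 0.0259) and 0.29 ± 0.07 (adjusted p = 0.00398). Pdhb was called higher in Δ/+ cells, and Ogdh, Pcx and Me1 in Δ/DN cells. Of 15 fits without 1 library, 11 kept the Pdhb call, 5 that of Ogdh, 11 that of Pcx and 10 that of Me1. Each of these calls was also lost with library totals and without the low-count filter. Under scaling by library totals the values of Cs, Dlst and Pdhb in Δ/+ and of Cs, Dlst and Ogdh in Δ/DN turned negative.

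The split of directions depended on the scaling, and which scaling is nearer the true split was not tested. With library totals alone, without TMM, the median LPS effect of all genes lay at -0.73 in Δ/+ and -0.67 in Δ/DN, and the 50 genes split into 6 higher and 35 lower and into 3 higher and 37 lower, beside 12 and 13 and 13 and 10 with TMM. Hk1, Pfkp and Acod1 stayed higher in both genotypes under that scaling.

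**Figure D3:**
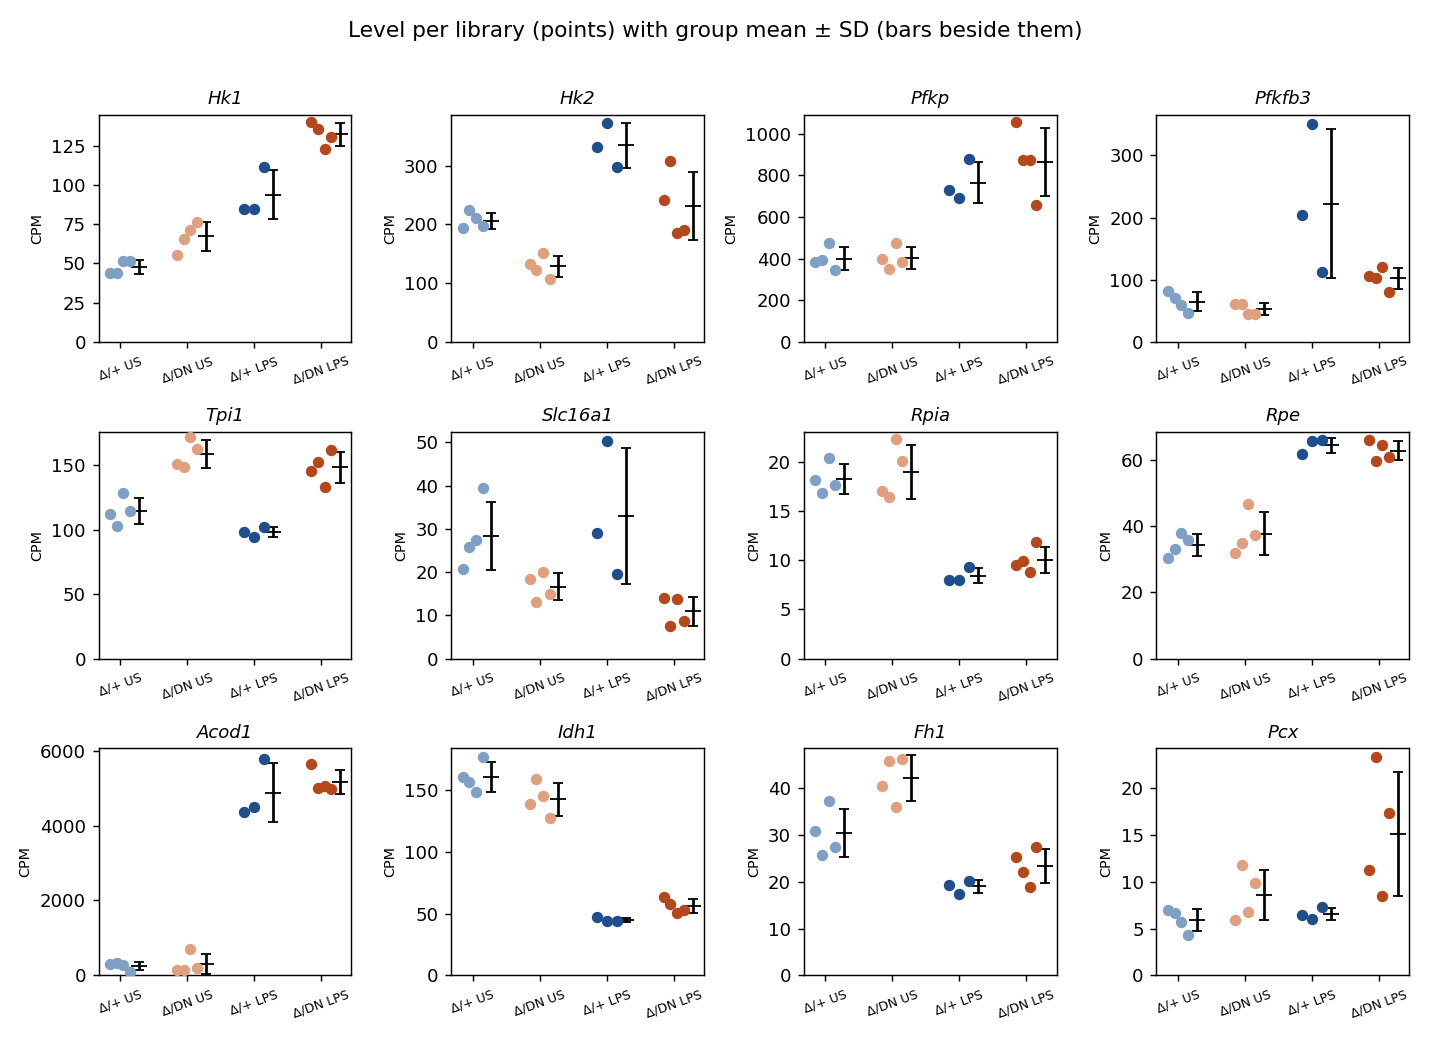
CPM in each library (points) with the group mean and SD beside them for 12 of the 50 genes, each panel with its own axis from 0. Hk1 steps up both from Δ/+ to Δ/DN and from US to LPS, Hk2 is lower in Δ/DN without LPS, and Slc16a1 in Δ/DN LPS lies below every Δ/+ LPS library.

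Between the genotypes, the question was whether cells with inactive MYSM1 differed in these genes at rest or after LPS. At rest, Hk1, Tpi1, Idh2, Fh1 and Mdh1 were higher and Hk2, Pgd and Aco1 lower in libraries labelled Δ/DN. With LPS, Hk1, Tpi1, G6pdx, Idh3a, Mdh1 and Pcx were higher and Slc16a1 lower. The 8 genes called at rest were 16.0% of the 50, where 10.5% of all tested genes were called (5.01% higher, 5.45% lower), and the 7 genes called with LPS were 14.0%, where 8.6% of all tested genes were called (5.37% higher, 3.23% lower). Hk1, Tpi1 and Mdh1 were higher in both treatments. At rest the groups did not overlap for 6 members higher and 4 lower, beside 12.5% of all genes (6.28% and 6.2%). With LPS this held for 15 higher and 3 lower, beside 24.6% (12.6% and 12.0%).

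These counts rested on single libraries, as did those over all genes, which ranged from 174 to 3403 at rest and from 90 to 2233 with LPS when 1 library was left out. At rest no member was called without Δ/+ US replicate 2 or 4. There was 1 without Δ/DN US replicate 2 or 4, and leaving out replicate 1 left 4 (Δ/+ US) and 5 (Δ/DN US). With LPS none was called without Δ/+ LPS replicate 2 or Δ/DN LPS replicate 2, 2 without Δ/+ LPS replicate 1, and 11 and 13 without Δ/+ LPS replicate 3 and Δ/DN LPS replicate 3. In the libraries of set 2 alone 4 genes were called at rest, all lower, and 11 with LPS, 10 of them higher.

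Hk1 differed by 0.46 ± 0.12 at rest (adjusted p = 0.024) and by 0.45 ± 0.13 with LPS (adjusted p = 0.046), with group means of 47.7 ± 4.44 and 67.1 ± 9.18 CPM (SD, n = 4 each) and of 93.6 ± 15.5 (n = 3) and 132 ± 7.37 CPM (n = 4). The libraries listed above did not overlap in either treatment. In set 2 alone the difference was 0.36 at rest, which was not called, and 0.56 with LPS. The call with LPS was kept in 5 of 15 fits without 1 library and lost under RLE scaling (adjusted p = 0.0546). Hk2 was lower in Δ/DN at rest, at 128 ± 18.7 against 206 ± 14.0 CPM (SD, n = 4 each), a log2 difference of -0.63 ± 0.14 (adjusted p = 0.0172) and of -0.73 in set 2 alone. With LPS the groups overlapped and the difference of -0.44 ± 0.16 was not called (adjusted p = 0.0957).

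Per kilobase, the level of Hk2 was 3.40, 3.99, 3.17 and 2.96 times that of Hk1 in Δ/+ US and 1.86, 1.46, 1.64 and 1.08 times in Δ/DN US libraries. With LPS the ratio was 3.04, 3.42 and 2.07 in Δ/+ and 1.34, 1.76, 1.17 and 1.13 in Δ/DN. Each Δ/+ library had a higher ratio than each Δ/DN library of either treatment. The ratio was formed after the values of both genes had been seen and is a description. Of the per-kilobase signal of the 3 hexokinases, Hk2 made up 53.4 ± 6.67% in Δ/+ US and 36.2 ± 4.49% in Δ/DN US (SD, n = 4 each), and Hk1 15.9 ± 1.46% and 24.5 ± 3.61%.

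Tpi1, the isomerase that interconverts the triose phosphates, lay at 112, 103, 128 and 114 CPM in Δ/+ US and at 151, 148, 172 and 162 CPM in Δ/DN US libraries. With LPS it lay at 98.5, 94.3 and 102 CPM in Δ/+ and at 146, 152, 133 and 162 CPM in Δ/DN. No libraries of the genotypes overlapped, with log2 differences of 0.46 ± 0.09 (adjusted p = 0.0101) and 0.57 ± 0.10 (adjusted p = 0.00906). In set 2 alone the values were 0.37 at rest (adjusted p = 0.052) and 0.60 with LPS. The neighbouring steps Aldoa and Gapdh were not called. With LPS, however, Aldoa too was higher in every Δ/DN than in every Δ/+ library, while at rest it overlapped. Gapdh overlapped in both treatments.

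Slc16a1, a transporter of lactate and other monocarboxylates, lay at 29.1, 50.4 and 19.5 CPM in Δ/+ LPS and at 14.0, 7.59, 13.7 and 8.64 CPM in Δ/DN LPS libraries. At rest it lay at 20.7, 25.9, 27.4 and 39.5 CPM in Δ/+ and at 18.3, 13.2, 20.0 and 15.1 CPM in Δ/DN. The genotypes did not overlap in either treatment, and the log2 difference was -1.72 ± 0.33 with LPS (adjusted p = 0.014) and -0.82 ± 0.29 at rest, which was not called (adjusted p = 0.0915). In set 2 alone the difference with LPS was -1.61. Slc16a3 took 59.0 ± 4.86% of the per-kilobase signal of this pair in Δ/+ US, 69.9 ± 2.70% in Δ/DN US, 50.9 ± 10.9% in Δ/+ LPS and 77.5 ± 7.03% in Δ/DN LPS libraries.

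**Figure D4:**
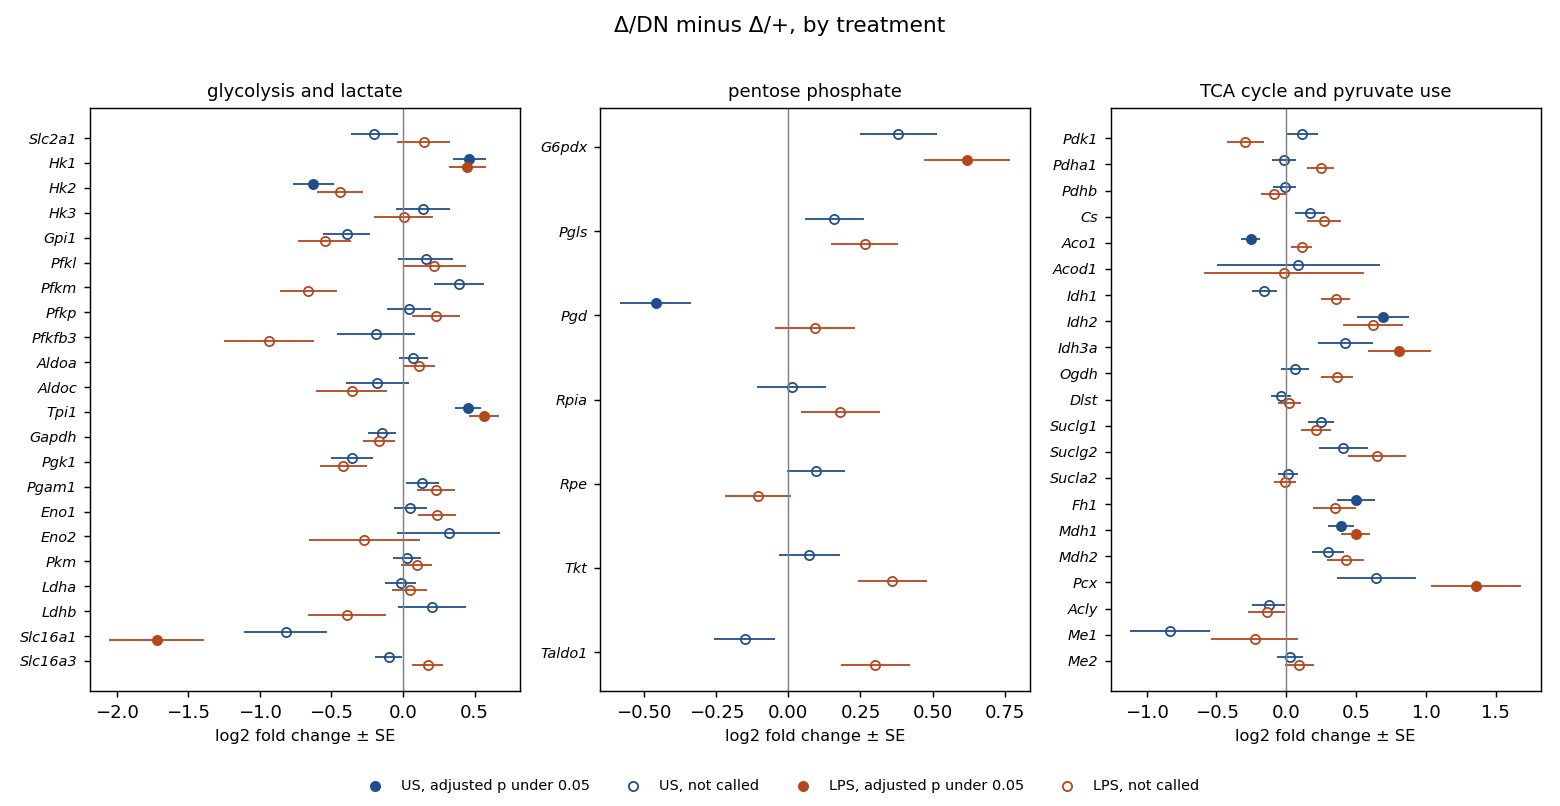
Log2 fold change ± SE of Δ/DN minus Δ/+ for each of the 50 genes (rows), without LPS (blue) and with LPS (red-brown), with filled points for an adjusted p under 0.05 and a separate horizontal scale in each panel. Hk1, Tpi1 and Mdh1 have filled points right of zero in both treatments, Hk2, Pgd and Aco1 have filled points left of zero without LPS, and Slc16a1 lies at -1.72 with LPS.

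In the pentose phosphate pathway 1 of 7 genes (14.3%) was called at each treatment, beside 10.5% of all tested genes at rest and 8.6% with LPS. Pgd, the phosphogluconate dehydrogenase of the oxidative arm, lay at 533, 625, 613 and 660 CPM in Δ/+ US and at 426, 399, 567 and 406 CPM in Δ/DN US libraries. Only Δ/DN US replicate 3 reached the Δ/+ range, and the log2 difference was -0.46 ± 0.12 (adjusted p = 0.0319). With LPS it lay at 448, 482 and 571 CPM in Δ/+ and at 567, 570, 549 and 518 CPM in Δ/DN, a difference of 0.09 ± 0.14 that was not called (adjusted p = 0.729). The call at rest was lost without Δ/DN culture 4 and held in set 2 alone, at -0.53.

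G6pdx, the X-linked glucose phosphate dehydrogenase that opens the pathway, lay at 133, 124 and 169 CPM in Δ/+ LPS and at 229, 230, 160 and 200 CPM in Δ/DN LPS libraries. At rest its levels were 130, 123, 171 and 115 CPM in Δ/+ and 164, 171, 166 and 174 CPM in Δ/DN. In both treatments the groups overlapped by 1 library, and the log2 difference was 0.62 ± 0.15 with LPS (adjusted p = 0.025) and 0.38 ± 0.13 at rest (adjusted p = 0.0808). In set 2 alone it was 0.69 with LPS, and without Δ/DN cultures 3 and 4 it was 0.68. The G6pdx call with LPS was kept in 12 of 15 fits without 1 library and was lost with libraries blocked by replicate number. Ikbkg shares 418 exon bases with G6pdx on the other strand and had 67.5% as many reads. Ikbkg itself lay at -0.82 ± 0.11 at rest and at -0.30 ± 0.13 with LPS, which was not called, and its part in the G6pdx values was not tested. Tkt lay at 0.36 ± 0.12 with LPS (adjusted p = 0.0742) and was called by DESeq2.

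Of the 21 TCA and pyruvate genes, 3 were higher and 1 lower in Δ/DN at rest, and 3 were higher with LPS. The shares called were 19.0% at rest and 14.3% with LPS, beside 10.5% and 8.6% of all tested genes. Mdh1, the cytosolic malate dehydrogenase of the malate-aspartate shuttle, lay at 46.6, 41.6, 48.6 and 51.9 CPM in Δ/+ US and at 54.3, 69.7, 62.8 and 62.3 CPM in Δ/DN US libraries. With LPS it lay at 45.1, 40.9 and 45.7 CPM in Δ/+ and at 62.6, 66.0, 56.9 and 64.1 CPM in Δ/DN. The genotypes did not overlap in either treatment, with differences of 0.39 ± 0.09 (adjusted p = 0.0197) and 0.50 ± 0.11 (adjusted p = 0.0164). Within set 2 these were 0.43, which was not called (adjusted p = 0.0567), and 0.55.

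Idh2, the mitochondrial NADP-dependent isocitrate dehydrogenase, lay at 15.8, 12.1, 19.7 and 16.3 CPM in Δ/+ US and at 21.5, 28.9, 21.4 and 33.8 CPM in Δ/DN US libraries (0.69 ± 0.19, adjusted p = 0.0322). With LPS it lay at 12.5, 13.8 and 14.9 CPM in Δ/+ and 19.3, 22.1, 18.2 and 28.8 CPM in Δ/DN, which did not overlap either, but the difference of 0.62 ± 0.21 was not called (adjusted p = 0.0819). Idh3a lay at 11.1, 12.7 and 14.0 CPM in Δ/+ LPS and at 21.8, 22.0, 13.7 and 29.4 CPM in Δ/DN LPS libraries, with Δ/DN replicate 3 inside the Δ/+ range (0.81 ± 0.22, adjusted p = 0.0425). At rest Idh3a lay at 21.7, 21.5, 32.1 and 25 CPM in Δ/+ and 32.1, 36.6, 29.6 and 35.4 CPM in Δ/DN, and was not called. In set 2 alone Idh2 at rest lay at 0.65, which was not called, and Idh3a with LPS at 0.80. The Idh3a call with LPS was kept in 4 of 15 fits without 1 library. It was also lost without the low-count filter and with libraries blocked by replicate number.

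Fh1 lay at 30.9, 25.8, 37.3 and 27.5 CPM in Δ/+ US and at 40.6, 45.9, 36.0 and 46.3 CPM in Δ/DN US libraries, which overlapped by 1 library (0.50 ± 0.14, adjusted p = 0.0341). With LPS it lay at 19.3, 17.5 and 20.3 CPM in Δ/+ and 25.2, 22.1, 19.0 and 27.3 CPM in Δ/DN and was not called. Aco1, whose levels are given above, was lower in every Δ/DN US library than in every Δ/+ US library, by a small -0.25 ± 0.07 (adjusted p = 0.0307). Within set 2 the values were 0.45 for Fh1 and -0.22 for Aco1, and neither was called there. Both calls were also lost with libraries blocked by replicate number.

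Pcx, the pyruvate carboxylase that refills oxaloacetate, lay at 6.42, 6.00 and 7.29 CPM in Δ/+ LPS and at 11.2, 23.3, 8.49 and 17.3 CPM in Δ/DN LPS libraries. At rest it lay at 6.96, 6.72, 5.76 and 4.29 CPM in Δ/+ and at 5.96, 11.8, 6.79 and 9.85 CPM in Δ/DN. All Δ/DN LPS libraries were above the Δ/+ LPS libraries, with a wide spread, and the difference was 1.36 ± 0.32 with LPS (adjusted p = 0.0254) and 0.64 ± 0.28 at rest (adjusted p = 0.166). Within set 2 the difference with LPS was 1.40. The Pcx call with LPS was lost without the low-count filter and with libraries blocked by replicate number.

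Acod1 did not differ between genotypes over all libraries, at 0.09 ± 0.58 at rest (adjusted p = 0.949) and -0.02 ± 0.57 with LPS (adjusted p = 0.991), where the wide SE leaves large differences within range. The resting value turned with library set. In set 2 alone Acod1 was called lower in Δ/DN at rest, at -1.06 (adjusted p = 0.00471), while in set 3 the Δ/+ library held 96.4 CPM and the Δ/DN libraries 710 and 192 CPM, too few for a test.

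Markers of other cells were examined beside these differences. Of 10 genes of cycling cells, 9 were higher in Δ/DN at rest and 6 with LPS, and their summed level ranged over 250 to 475 CPM in Δ/+ US, 483 to 971 CPM in Δ/DN US, 282 to 373 CPM in Δ/+ LPS and 468 to 825 CPM in Δ/DN LPS libraries. Of 11 macrophage markers, 4 were higher and 2 lower at rest and 2 higher and 2 lower with LPS, and of 12 neutrophil markers 1 was higher in each treatment. The macrophage markers summed to 1505 to 1795 CPM in Δ/+ US and 1961 to 2215 CPM in Δ/DN US libraries, and the neutrophil markers to 132 to 213 CPM and 179 to 1119 CPM. The 12 conventional dendritic cell markers summed to 1391 to 1654 CPM and 1610 to 1808 CPM. Of these 12, 4 were higher and 0 lower at rest, and 1 was higher and 0 lower with LPS. With LPS the macrophage ranges were 1890 to 2001 and 2022 to 2689 CPM, the neutrophil ranges 113 to 164 and 178 to 1261 CPM, and the dendritic cell ranges 2038 to 2373 and 1997 to 2830 CPM. Mast cell and basophil markers summed to at most 60.6 CPM, progenitor markers to at most 49.1 CPM and erythroid markers to at most 2.74 CPM in any library. Of 7 mast cell and basophil markers 1 was higher at rest and 2 with LPS. Of 4 progenitor markers tested 2 were higher at rest, and with LPS 1 was higher and 1 lower. Of 4 erythroid markers tested 2 were higher at rest and 0 with LPS. The part of all these markers in the genotype differences of the 50 genes was not tested.

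The difference of the LPS effects asked whether the genotypes responded unequally, and edgeR called 0 of the 50 genes, where 0.00479% of all tested genes were called. At an unadjusted p under 0.05 there were 6 of 50, beside 1873 of all 20865 genes. This fit held no term for culture. With US and LPS libraries blocked by culture, 0 of the 50 genes were called, beside 156 of all genes. DESeq2 called 1 member, Pfkm, beside 73 higher and 35 lower over all genes. Pfkm lay at 2.12, 2.48, 2.38 and 2.34 CPM in Δ/+ US, 3.80, 5.24 and 4.22 CPM in Δ/+ LPS, 2.85, 3.07, 2.56 and 4.13 CPM in Δ/DN US and 2.52, 2.84, 3.23 and 3.33 CPM in Δ/DN LPS libraries. Every Δ/+ LPS library was above every Δ/+ US library, the Δ/DN treatments overlapped, and the effects differed by -1.05 ± 0.25 (edgeR adjusted p = 0.239, DESeq2 adjusted p = 0.0176). Pfkm shares 18 exon bases with Senp1, which had 1339% as many reads. For Idh1 and Aco1, the fall with LPS was smaller in Δ/DN by 0.51 ± 0.14 and 0.36 ± 0.10, and these differences were not called (adjusted p = 0.256 and 0.267).

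Isoforms of a step stood at very different levels per kilobase. Pfkp made up 91.2 ± 1.27% of the phosphofructokinase signal per kilobase in Δ/+ US and 95.1 ± 1.22% in Δ/+ LPS libraries, against 90.2 ± 2.32% and 95.2 ± 2.07% in Δ/DN. Pfkm was at most 1.38% in any library. Ldha made up between 97.9% and 99.0% of the Ldha and Ldhb signal, and Eno1 at least 99.5% of the Eno1 and Eno2 signal. Aldoa, the highest of the 50 genes per kilobase at rest when reads on near-identical copies are left out, made up between 94% and 97.1% of the signal of Aldoa and Aldoc. Of the summed signal of Idh1, Idh2 and Idh3a, which leaves out the other subunits Idh3b and Idh3g, Idh1 made up 78.8 ± 3.84% in Δ/+ US and 60.7 ± 3.05% in Δ/+ LPS libraries, and 68.9 ± 4.40% and 54.1 ± 6.26% in Δ/DN, while Idh2 and Idh3a took the rest. Sucla2 exceeded Suclg2, and Me2 exceeded Me1, in every library.

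Several glycolysis genes have near-identical copies that drew reads. Genes whose transcripts matched a member over at least 300 bases at 95% identity, away from its locus, numbered 75 for Gapdh, 4 for Eno1, 3 for Pgk1 and 1 for Pgam1. Summed over the libraries, the reads on these copies came to 2423% of the reads of Gapdh, 61.7% of those of Eno1, 62.1% of those of Pgk1 and 67.6% of those of Pgam1. The counted Gapdh locus held between 3.72% and 4.39% of the family's CPM in each library. How reads that map to several loci were counted was not given, so the level of the transcript is uncertain. Gapdh and its copies together lay at 8757 ± 557 CPM in Δ/+ US, 8003 ± 1015 CPM in Δ/DN US, 10552 ± 140 CPM in Δ/+ LPS and 9893 ± 599 CPM in Δ/DN LPS libraries. With the copies added, all 63 calls over the 5 comparisons held, and the LPS effect of Gapdh in Δ/DN became called (0.31 ± 0.12, adjusted p = 0.0473). Suclg2 has 1 copy with 39.5% as many reads as the gene, so its level is uncertain.

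**Figure D5:**
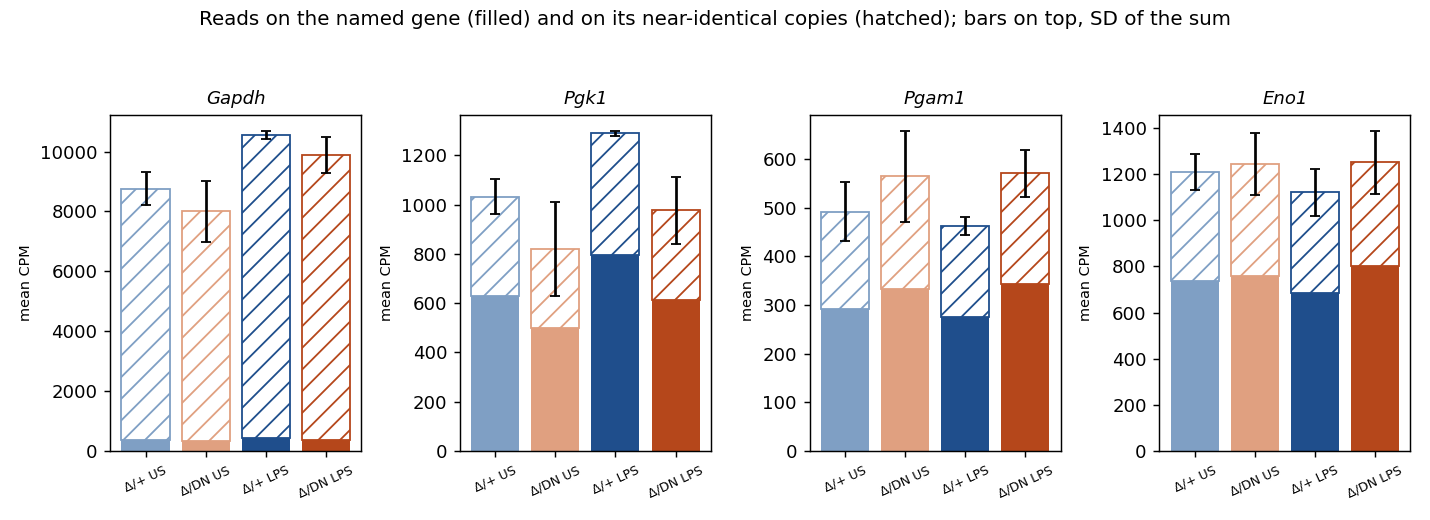
Mean CPM on the named gene (filled) and on its near-identical copies (hatched) in each of the 4 groups, with error bars for the SD of the sum and an axis from 0 in each panel. Most reads of the Gapdh family lie on copies in all groups, and about the same share of the Pgk1, Pgam1 and Eno1 families lies on the named gene in all groups.

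Other genes of the same pathways were listed by name beside the 50. Their LPS counts stand beside 47.7% of all tested genes called in Δ/+ (22.4% higher, 25.3% lower) and 48.2% in Δ/DN (23.1% higher, 25.1% lower). Of 25 further glycolysis genes 19 were tested, of which 4 rose and 4 fell with LPS in Δ/+ and 2 rose and 6 fell in Δ/DN cells. Slc2a6, a lysosomal sugar transporter, rose from 77.4 ± 12.8 CPM (SD, n = 4) to 544 ± 40.1 CPM (n = 3) in Δ/+, by 2.82 ± 0.22, and by 2.52 ± 0.21 in Δ/DN. Gpd2, the mitochondrial glycerol phosphate dehydrogenase, rose by 1.91 ± 0.11 and 1.88 ± 0.10, from 65.3 ± 4.95 to 250 ± 8.42 CPM in Δ/+. Pfkfb4 and Pfkfb2, relatives of Pfkfb3, fell where Pfkfb3 rose, with log2 changes of -1.76 ± 0.16 and -1.63 ± 0.17 in Δ/+ and of -1.37 ± 0.14 and -1.44 ± 0.15 in Δ/DN. Bpgm, the bisphosphoglycerate mutase, had log2 changes of -1.48 ± 0.21 and -1.63 ± 0.19. Slc2a3, a glucose transporter, rose by 1.20 ± 0.25 in Δ/+ and was not called in Δ/DN (0.44 ± 0.23).

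Of 9 further pentose phosphate genes 7 were tested, of which 1 rose and 5 fell in Δ/+ and none rose and 5 fell in Δ/DN cells. The log2 change was -2.32 ± 0.26 and -2.03 ± 0.23 for Shpk, the sedoheptulose kinase. It was -1.47 ± 0.17 and -1.20 ± 0.15 for H6pd, which runs the oxidative arm in the endoplasmic reticulum, and for Prps2, which makes phosphoribosyl pyrophosphate, -0.61 ± 0.12 and -0.71 ± 0.10. Pgm1, a phosphoglucomutase, rose by 0.63 ± 0.12 in Δ/+ and was not called in Δ/DN (0.04 ± 0.11). Of 34 further TCA genes 32 were tested, of which 7 rose and 13 fell in Δ/+ and 6 rose and 12 fell in Δ/DN cells. Dld, the shared dehydrogenase subunit of the pyruvate and oxoglutarate complexes, rose by 0.74 ± 0.07 and 0.65 ± 0.06, and Mpc1, a mitochondrial pyruvate carrier, by 0.76 ± 0.10 and 0.56 ± 0.10. Slc25a12, the aspartate carrier of the malate-aspartate shuttle, rose by 1.06 ± 0.16 and 0.86 ± 0.15. Pdp2, a phosphatase that activates pyruvate dehydrogenase, changed by -0.98 ± 0.14 and -0.52 ± 0.12, and Pck2, the mitochondrial phosphoenolpyruvate carboxykinase, by -1.34 ± 0.23 and -1.22 ± 0.21, all called lower. D2hgdh, a mitochondrial dehydrogenase, was lower with log2 changes of -1.61 ± 0.20 in Δ/+ and of -1.67 ± 0.18 in Δ/DN.

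Between genotypes, 9 of these further genes were higher and 2 lower in Δ/DN at rest, and 5 were higher and 3 lower with LPS, of 58 tested. Over all tested genes 10.5% were called at rest (5.01% higher, 5.45% lower) and 8.6% with LPS (5.37% higher, 3.23% lower). Pdk3, a kinase that inhibits pyruvate dehydrogenase, was higher by 0.85 ± 0.16 at rest (adjusted p = 0.0092) and by 0.77 ± 0.18 with LPS (adjusted p = 0.023). Slc25a11, the oxoglutarate carrier of the malate-aspartate shuttle, was higher by 0.41 ± 0.09 and 0.61 ± 0.10, and Slc25a12 by 0.74 ± 0.16 at rest. Slc25a10, Sdhb, Slc16a7, Rbks and Prps2 were higher at rest, Got2 and Eno3 with LPS, and Ldhc in both from levels under 1 CPM. Pdp1 and Pdhx were lower with LPS, and Fbp1, a gluconeogenic phosphatase, in both treatments, at 0.722 ± 0.741 against 0.0798 ± 0.103 CPM at rest (SD, n = 4 each).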

How the data were processed

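RNA-seq read counts of 15 libraries were analysed. Per the labels' protocols, libraries were prepared with KAPA RNA HyperPrep and RiboErase. Trimming (Trimmomatic 0.33), alignment (HISAT2 2.2.1, GRCm39) and counting (featureCounts) tools are those listed in the submitters' processing notes, which also name FastQC, bedtools and edgeR. The authors deposited a raw count for each gene beside its length, and strand use in the counting was not given. From these counts, genes were filtered with filterByExpr (minimum count 10, 20865 genes kept), scaled with TMM and tested with edgeR 4.0.16 in R 4.3.3 (robust quasi-likelihood, the 4 groups plus library set as terms), with Benjamini-Hochberg adjustment and a threshold of 0.05. Alternatives used DESeq2 1.42.0, limma 3.58.1 (voom), other scalings, no filter, a culture block and left-out libraries. The fits were tested on simulated data.

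The 50 genes, the lists and the ratio of hexokinases were chosen with earlier results of these data known. Values in every library are given for members called in a genotype comparison, for the 3 of smallest p per pathway and direction in each LPS comparison, and for Acod1; Pfkm was added after its values were seen. Of the further genes, those called between genotypes and the 3 of smallest p per list and direction in each LPS comparison are named, except a few that are not reported here. US and LPS libraries of 1 number share an identifier in the sample labels. Their deviations from the group means correlated at 0.144, 0.0643 and 0.221 in Δ/+ and at 0.183, 0.313, 0.308 and 0.428 in Δ/DN, and both libraries of Δ/DN cultures 3 and 4 shared their sex-linked levels. The deposited length exceeded the gene's span for 9 of the 50 genes, so levels per kilobase used the longest coding transcript of GENCODE M21 in place of the deposited length that had been planned. Near-identical copies were found with BLAST 2.17.0. Promoter windows are on GRCm38.p6 and were not joined to the coordinates of the counted genes. Total counts of 37256651 to 104041282 reads set the depth, and PCR duplicates make counting error a lower bound.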

Additional observations from a re-analysis of the deposited data

Results flagged for a closer look

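In 8 of 150 groups of 4 libraries examined for a single library far from the others, the gap was large by Dixon's criterion, and chance flags about 1 in 20. In Δ/DN US replicate 3, which belongs to the culture with low Ddx3y, 5 genes stood apart: Slc2a1 at 114 CPM (others 84.9 to 89.8), Aldoa at 939 CPM (711 to 736), Ldha at 664 CPM (511 to 527), Pgd at 567 CPM (399 to 426) and Acod1 at 710 CPM (150 to 192). In replicate 4 of Δ/+ US, which is from set 3, Hk3 lay at 109 CPM (56.5 to 59.8) and Taldo1 at 277 CPM (192 to 206). In Δ/DN LPS replicate 1, Acod1 lay at 5652 CPM (4978 to 5055).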

How the results depend on the processing

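Over the 63 calls, voom and the added copies lost none, DESeq2 2, RLE scaling 3, set 2 alone 10, no filter 10 and library totals 12. Library totals also turned Cs (-0.28), Dlst (-0.42), Hk2 (-0.011) and Pdhb (-0.41) in Δ/+ and Cs (-0.11), Dlst (-0.30) and Ogdh (-0.33) in Δ/DN. That fit differed from the main fit in the scaling only, and which scaling is nearer the true direction was not tested. Of the 50 genes, 8 were called for genotype at rest, 5 with library totals, 4 in set 2 alone, 5 without Δ/DN culture 4 and 0 to 10 with single libraries left out. With LPS 7 were called, 13 with library totals, 11 in set 2 alone, 16 without Δ/DN culture 3, 12 without Δ/DN cultures 3 and 4, 13 with DESeq2 and 0 to 13 with single libraries left out; the cause was not tested. Over all genes 2184 were called at rest, 1383 with library totals, 1271 in set 2 alone and 1647 without culture 4, and with LPS 1795, 1763 with library totals, 1933 in set 2 alone, 2878 without culture 3, 2062 without cultures 3 and 4 and 2916 with DESeq2. For LPS, 41 (Δ/+) and 40 (Δ/DN) were called with library totals, and 20 to 28 and 20 to 27 with single libraries left out. Over all genes these counts were 13528 and 13546 with library totals, and 8742 to 10176 and 8955 to 10170 with single libraries left out. The difference of the effects gave 1 call with DESeq2 and 0 to 0 with single libraries left out. With the replicate block 7, 5, 29, 31 and 0 genes were called, beside 1551, 1294, 10534, 10973 and 156 over all genes. The block changed no call of an LPS effect to not called. Between genotypes the block joins different mice by number only, with correlations of 0.146, 0.0163, -0.0425 and 0.121 at rest and 0.0117, -0.0367 and -0.0885 with LPS, and 5 of the 63 calls were lost under it, those of Aco1 and Fh1 at rest and of G6pdx, Idh3a and Pcx with LPS. Depth limits chiefly Pfkm and Eno2, at a few CPM.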
